A study of Mus musculus with 4 samples.

Results

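The Speer genes are a mouse gene family whose name stands for spermatogenesis-associated glutamate (E)-rich proteins. They were followed here through 13 probes for 10 genes, of 17034 named genes and 26512 probes on each Illumina bead array. The members were chosen by their name and by the measured signals and detection p of FLT3-ITD against pMIG arrays: every probe whose platform gene symbol starts with Speer, plus the probe of 4933402N22Rik was taken, and each was read on its own. RNA came from lineage-negative bone marrow cells marked WT (wild type) in the labels, which are marrow cells depleted of those carrying markers of mature blood lineages. On 2 arrays the cells carried FLT3-ITD, an internal tandem duplication that leaves the receptor tyrosine kinase FLT3 active without its ligand, and had signalled for 48 h. On the other 2 the cells carried pMIG, a retroviral vector used empty as the control, and the time given was also 48 h. The labels name no separate animals or cultures behind the replicates, and give no strain, age or share of cells carrying a vector. The p-values below therefore measure the spread between these arrays, which may be technical.

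Speer genes are known from the testis, where they are transcribed in developing male germ cells. They derive from a partial duplication of Dlg5, a scaffold protein gene, and lie in many near-identical copies, most of them on chromosome 5. In the reference gene table (RefSeq, GRCm38.p6) the family with 4933402N22Rik had 16 genes, of which 12 lay on chromosome 5. Of the 16 genes 10 had a probe, 7 of them on chromosome 5. Speer5-ps1 lay on chromosome 10, Speer6-ps1 on chromosome 13 and Speer2 on chromosome 16. Speer4a, Speer4c, Speer4cos, Speer4e, Speer4f2 and Speer9-ps1 had no probe listed under their names. Because the copies are so alike, a probe named for one gene may also read transcripts of another. Which copies each probe can bind was not tested, and each result below belongs to the probe first and to the named gene second.

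Promoter windows, which run from 250 bases before to 50 bases after an annotated start, were taken from RefSeq (GRCm38.p6) for 7 of the 10 genes. They are shown because windows of the 3 genes read most strongly with FLT3-ITD shared a run of letters that the other family windows lacked. For Speer1 this held at its second start only. The 6 windows below are from Speer1 at its second start (chr5:11341211-11341510, plus strand), 4933402N22Rik (chr5:11917793-11918092, plus strand), Speer3 (chr5:13791369-13791668, plus strand), Speer4d (chr5:15618849-15619148, plus strand), Speer1 at its first start (chr5:11340158-11340457, plus strand) and Speer2 (chr16:69863695-69863994, minus strand). Each is written from 5′ to 3′. Capitals mark 2 runs, the 26 letters CTCAGTGTCTAGCCACTAGGTTGGTG and the 22 letters CTGTGATGTCACCAGTGTTGTA.
Speer1, second start: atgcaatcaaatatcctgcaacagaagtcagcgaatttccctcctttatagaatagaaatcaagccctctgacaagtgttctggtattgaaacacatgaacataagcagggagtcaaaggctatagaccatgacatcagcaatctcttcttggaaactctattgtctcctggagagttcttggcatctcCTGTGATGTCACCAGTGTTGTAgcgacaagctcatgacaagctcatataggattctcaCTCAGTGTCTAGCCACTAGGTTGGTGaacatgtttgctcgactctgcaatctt
4933402N22Rik: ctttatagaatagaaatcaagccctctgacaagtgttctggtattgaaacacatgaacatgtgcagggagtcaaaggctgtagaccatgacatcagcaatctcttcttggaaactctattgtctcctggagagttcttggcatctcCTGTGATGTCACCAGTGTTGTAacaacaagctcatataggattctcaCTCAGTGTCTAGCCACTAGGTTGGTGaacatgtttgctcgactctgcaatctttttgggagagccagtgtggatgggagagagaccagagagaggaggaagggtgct
Speer3: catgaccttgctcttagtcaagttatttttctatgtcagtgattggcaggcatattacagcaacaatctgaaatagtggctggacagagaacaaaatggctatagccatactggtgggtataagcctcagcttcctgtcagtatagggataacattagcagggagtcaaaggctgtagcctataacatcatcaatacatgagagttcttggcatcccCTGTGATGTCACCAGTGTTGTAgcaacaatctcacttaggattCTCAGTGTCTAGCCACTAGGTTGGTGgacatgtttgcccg
Speer4d: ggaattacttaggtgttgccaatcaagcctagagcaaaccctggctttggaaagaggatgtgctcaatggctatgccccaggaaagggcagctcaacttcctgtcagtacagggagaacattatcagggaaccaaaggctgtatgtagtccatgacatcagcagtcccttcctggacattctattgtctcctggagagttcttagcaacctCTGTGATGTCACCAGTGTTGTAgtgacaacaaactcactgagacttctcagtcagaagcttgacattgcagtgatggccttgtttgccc
Speer1, first start: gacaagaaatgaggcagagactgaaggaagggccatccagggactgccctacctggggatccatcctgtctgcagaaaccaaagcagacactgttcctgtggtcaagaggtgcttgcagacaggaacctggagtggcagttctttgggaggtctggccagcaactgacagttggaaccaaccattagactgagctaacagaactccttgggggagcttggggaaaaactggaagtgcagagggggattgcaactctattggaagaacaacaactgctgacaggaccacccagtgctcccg
Speer2: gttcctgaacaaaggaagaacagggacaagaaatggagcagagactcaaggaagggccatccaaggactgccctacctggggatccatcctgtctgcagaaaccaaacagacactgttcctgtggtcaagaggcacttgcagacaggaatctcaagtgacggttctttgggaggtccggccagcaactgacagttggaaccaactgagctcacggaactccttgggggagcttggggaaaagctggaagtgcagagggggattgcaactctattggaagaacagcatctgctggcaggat

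The run of 26 letters was the longest found in the windows of Speer1 (second start), 4933402N22Rik and Speer3 and in none of the other 9 family windows. Among those 9 was the first start of Speer1 itself, and Speer6-ps1, also detected on both FLT3-ITD arrays, had no window. The run was searched for after those 3 genes were seen to be bright, and with the second start of Speer1 picked. Its presence in them is therefore a description of a chosen run. On either strand the run was present in 6 of 32851 promoter windows of the reference. The other 3 belonged to Gm5861 (chr5:11183015-11187810), Gm6460 (chr5:11594956-11599480) and Gm6647 (chr5:13767244-13772067), predicted protein-coding genes with no probe listed here. All 6 genes lay on chromosome 5 between bases 11183015 and 13796819. The run of 22 letters was picked as the longest shared by the windows of Speer1 (second start), 4933402N22Rik, Speer3 and Speer4d. Its presence in those windows is thus fixed by the choice. It was found in 15 windows in all, among them also those of Speer4c and Speer4e, and all 15 were on chromosome 5.

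The whole windows fell into groups by alignment. Speer1 (second start) and 4933402N22Rik were identical at 94.6% of 257 aligned columns, and each matched Speer3 at 63.6% and 67.6%. Among the Speer4 genes Speer4d and Speer4b, neither of them detected, matched at 96.6%. The first start of Speer1 was unlike its second (48.4%) and matched Speer2 at 90.2%.

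**Figure D1:**
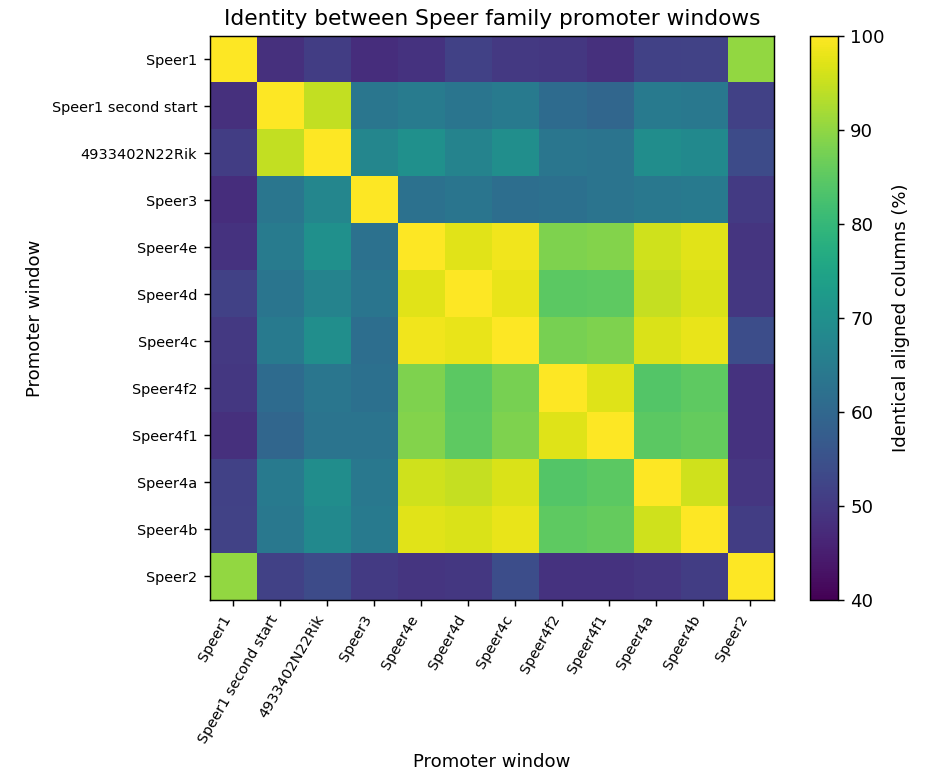
Percent of identical aligned columns (colour) between the 12 promoter windows of the family, with both starts of Speer1. The Speer4 windows form a block of high identity, Speer1 (second start) pairs with 4933402N22Rik at 94.6%, and Speer1 (first start) pairs with Speer2 at 90.2%.

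Short motifs were searched on both strands. TGACATCA, a relative of the cAMP response element, was present in 10 of the 12 family windows and in 3.62% of all windows, and the run of 22 letters contains it on the opposite strand. It was therefore found in family windows whether or not the gene's probe was bright. The cAMP response element itself, TGACGTCA, was in 0 of 12 family windows and 1.79% of all. TTCNNNGAA, the pattern bound by STAT factors, was in 2 of 12 (Speer1 at its second start and 4933402N22Rik) and in 8.3% of all windows. TATAAA was in the same 2 and in 13.6% of all, and TGANTCA, the AP-1 pattern, in 0 of 12 and 7.81% of all. These are matches of letters, and no binding was measured.

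Speer3, 4933402N22Rik and Speer1 were read at or near background on the pMIG arrays and brightly on both FLT3-ITD arrays. Speer proteins are named for their glutamate-rich sequence, and no other function is assigned to them here. The members were chosen by this contrast, so their differences are given as descriptions and without a test. Intensities are non-normalized bead signals, on arrays whose estimated background was 94.7 to 97.9, and a probe counts as detected where its deposited detection p was under 0.05.

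Speer3 (chr5:13791619-13796819, probe ILMN_2795564) had intensities of 423.6 and 417.1 with FLT3-ITD against 105.2 and 89.7 with pMIG. Both FLT3-ITD arrays were far above both pMIG arrays, and the probe was detected on 1 of 2 pMIG arrays, with a detection p of 0.0339. After background correction and quantile normalization its log2 signal was 8.44 ± 0.11 with FLT3-ITD and 4.35 ± 0.25 with pMIG (SD, n = 2). That is a log2 difference of 4.09 against a pMIG signal detected on only 1 of 2 arrays. Without background correction the difference was 2.15, so its size, and any rank by it, depends on how the dim pMIG signal is treated.

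4933402N22Rik (chr5:11918043-11922804, probe ILMN_2776561) is a gene named only by its cDNA clone. The reference lists it as protein-coding, whereas the platform annotation ties its probe to a non-coding RNA record. The probe's intensities were 261.1 and 274.7 with FLT3-ITD and 90.8 and 89.3 with pMIG. It was detected on both FLT3-ITD arrays and on no pMIG array, and the groups were apart by far more than the replicates differed. Its log2 signal was 7.58 ± 0.04 with FLT3-ITD and 4.17 ± 0.01 with pMIG (SD, n = 2). The pMIG signal was not detected, so a bound was estimated, and on it the gene was 9.54-fold higher with FLT3-ITD. That bound sets the FLT3-ITD mean against the lowest detected signal of each pMIG array, or the probe's own where higher. It is not a lower limit, since a probe can read above that signal and be undetected. Gnat3 (ILMN_3026658), detected on no pMIG array, read 112.9 on pMIG replicate 1, where the lowest detected intensity was 98.9. The size also moved with the processing. The log2 difference of 4933402N22Rik was 2.12 with a larger offset of 50 and 1.60 without background correction.

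Speer1 (chr5:11340408-11346273) was read by 2 probes, and both behaved alike. Probe ILMN_3143494 had intensities of 275.6 and 303.9 with FLT3-ITD and 91.5 and 97.9 with pMIG. Probe ILMN_3065555 had 210.3 and 214.7 against 88.6 and 95.9. Each was detected on both FLT3-ITD arrays and on no pMIG array, with no overlap between groups. Their log2 signals with FLT3-ITD were 7.74 ± 0.03 and 7.08 ± 0.07 (SD, n = 2). On bounds estimated in the same way, which are likewise not lower limits, the signals were 10.6-fold and 6.72-fold higher. The log2 differences without background correction were 1.64 and 1.23. The platform annotation ties both probes to a non-coding RNA record, whereas the reference table lists the gene as protein-coding.

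Speer6-ps1 (chr13:3149475-3189678, probe ILMN_2666101), a transcribed pseudogene, followed at a lower level of change. Its intensities were 118.2 and 140.4 with FLT3-ITD and 86.7 and 96.4 with pMIG. It was detected on both FLT3-ITD arrays and on no pMIG array, and was 2.44-fold higher on the same kind of estimated bound. Its FLT3-ITD replicates differed more than those of the brighter probes (log2 signal 5.61 ± 0.37, SD, n = 2), and without background correction the difference was 0.51.

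**Figure D2:**
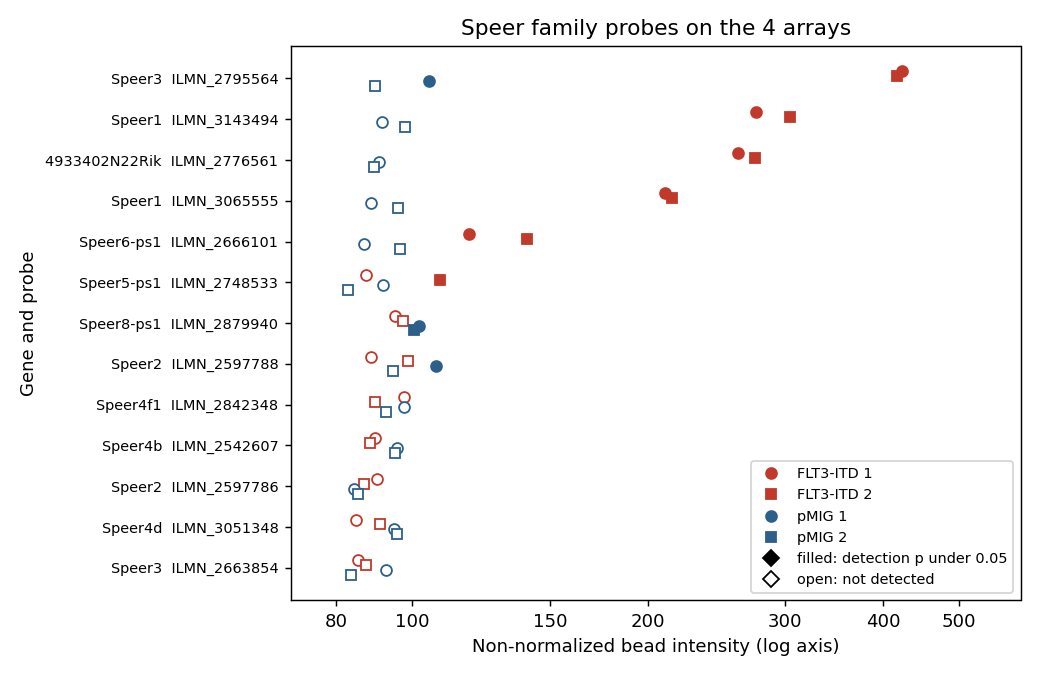
Non-normalized intensity (log axis) of the 13 probes on the 2 FLT3-ITD arrays (red) and the 2 pMIG arrays (blue), filled where the detection p was under 0.05. The upper 4 probes, of Speer3, Speer1 and 4933402N22Rik, lie between 210.3 and 423.6 on the FLT3-ITD arrays and at or below 105.2 on the pMIG arrays.

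The remaining 8 probes stayed near background. Speer5-ps1 (ILMN_2748533), a transcribed pseudogene on chromosome 10, read 87.3 and 108.7 with FLT3-ITD and 91.8 and 82.9 with pMIG, and was detected on 1 FLT3-ITD array only. Speer8-ps1 (ILMN_2879940), a transcribed pseudogene on chromosome 5, went the other way. It read 95 and 97.4 with FLT3-ITD and 101.9 and 100.5 with pMIG. It was detected on the 2 pMIG arrays alone, with detection p of 0.0484 and 0.0379, close to the threshold. Its values all lay close to background, so no size of difference is given.

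Speer2 (chr16:69856874-69863762) had 2 probes that were not detected with FLT3-ITD. Probe ILMN_2597788 read 88.5 and 98.8 with FLT3-ITD and 107.4 and 94.4 with pMIG, where it was detected on 1 array, and the groups overlapped. The other, ILMN_2597786, was detected on no array and read 84.2 to 90.2. The probes of Speer4b, Speer4d and Speer4f1, protein-coding genes of chromosome 5, were also detected on no array. Speer4b read 88.2 to 95.5, Speer4d 84.7 to 95.5 and Speer4f1 89.5 to 97.7 over the 4 arrays. For these probes a transcript was not detectable at this signal, and values so close to background have no order.

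The 2 probes of Speer3 disagreed. ILMN_2663854, annotated to a later version of the same accession as the bright probe, was detected on no array and read 85.3 and 87.2 with FLT3-ITD and 92.5 and 83.5 with pMIG. The probes' own target positions were not used here. The bright signal under the name Speer3 therefore rests on 1 of its 2 probes, whereas that of Speer1 rests on both.

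Counted together, 5 of the 13 probes, for 4 of the 10 genes, were detected on both FLT3-ITD arrays. Over all 26512 probes 51.9% were detected on FLT3-ITD replicate 1 and 52.4% on replicate 2, so detection alone does not set the family apart. Of the 5 family probes, 4 were detected on both FLT3-ITD arrays and on no pMIG array, a pattern found in 262 of 26512 probes (0.988%). With a stricter detection p of 0.01, chosen after seeing the data, 5 family probes showed it, of 197 in all. Ranked by the log2 difference that the estimated bound gives, Speer1 (ILMN_3143494) stood at 1 of the 262, 4933402N22Rik at 2, Speer1 (ILMN_3065555) at 3 and Speer6-ps1 at 11. Ifng, which encodes interferon gamma, stood at 4. These counts and ranks come from the signals and detection p by which the members were chosen, so nothing is read from them. The reverse pattern, detection on both pMIG arrays alone, was found in 274 probes (1.03%), with Speer8-ps1 among them.

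In the fit of all probes detected on at least 2 arrays, 6 of the 13 family probes entered. The others were too dim, and a probe that enters through one group alone tends to differ, so the 6 are not the family as a whole. In limma 4 of the 6 passed an adjusted p of 0.05, all higher with FLT3-ITD (1 of Speer3, 2 of Speer1 and 4933402N22Rik), where 15 of 14178 probes (0.106%) did so. The members were chosen by this contrast, so nothing is read from that count. Of the 6 probes 5 had both FLT3-ITD arrays above both pMIG arrays, against 23.8% of all fitted probes, and Speer8-ps1 had them below, against 25.6%. An exact test of 2 arrays against 2 cannot go below p = 0.333, so the calls depend on variance pooled across probes by limma. Leaving out FLT3-ITD replicate 1, FLT3-ITD replicate 2, pMIG replicate 1 or pMIG replicate 2 brought the count in limma to 0 each time, in fits where the lone array of one group is assumed to vary like the other group's 2, while 1567 to 1834 probes had an unadjusted p under 0.05.

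**Figure D3:**
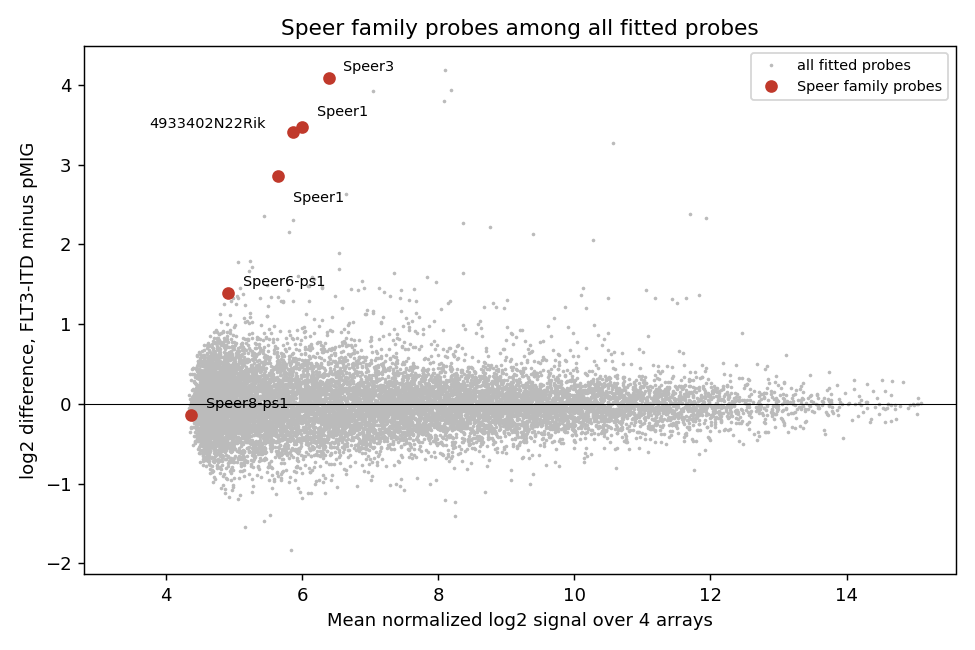
Mean log2 signal over the 4 arrays (horizontal) against the log2 difference, FLT3-ITD minus pMIG (vertical), for the 14178 fitted probes (grey) and the 6 family probes among them (red). The probes of Speer3, Speer1 and 4933402N22Rik lie between 2.85 and 4.09, Speer6-ps1 at 1.39 and Speer8-ps1 at -0.14. All but Speer3 were undetected in a whole group, so their heights are plotted values set against background. Fold values given for them in the text are estimated bounds and not lower limits.

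For the 5 probes detected on both FLT3-ITD arrays the size of the difference moved with the processing, while its direction was the same in the 8 other settings that could change it. Over these the log2 difference of Speer3 (ILMN_2795564) ran from 2.15 to 4.21. That of 4933402N22Rik ran from 1.60 to 3.45 and those of the Speer1 probes from 1.64 to 3.60 and from 1.23 to 2.97. Speer6-ps1 ran from 0.51 to 1.67, and the lowest value of each of the 5 came without background correction.

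**Figure D4:**
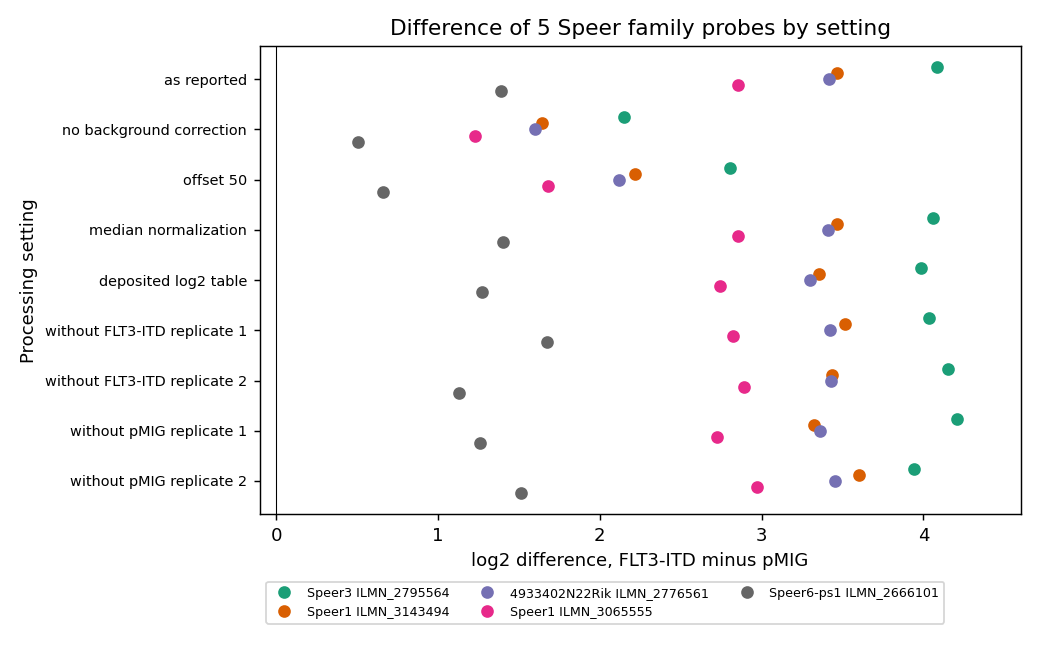
The log2 difference, FLT3-ITD minus pMIG (horizontal), of the 5 family probes detected on both FLT3-ITD arrays, as reported and under 8 other settings (vertical). Values fall without background correction and with an offset of 50, to 2.15 for Speer3 without correction. With 1 array left out Speer3 lies between 3.94 and 4.21.

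The 3 bright genes lay in the same part of chromosome 5. Speer1, 4933402N22Rik and Speer3 were the 3 members of lowest coordinate there, within 2456412 bases. The members beyond them on that chromosome were not detected on any FLT3-ITD array, where 51.9% and 52.4% of all probes were detected. Speer6-ps1, also detected on both FLT3-ITD arrays, lies on chromosome 13, and the undetected probe of Speer3 is listed at the same place as the bright probe. The stretch from Speer1 to Speer3 held 37 genes in the reference, 28 of them named only as predicted genes, and 6 probes. The single probe there outside the family was for Sema3a, a secreted axon guidance protein gene. It read 102.5 and 93.5 with FLT3-ITD and 94.4 and 84.6 with pMIG, so it did not share the pattern. The other genes of that stretch were not measured by a probe under their names.

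Within 500000 bases of any chromosome 5 member lay 87 other genes, of which 10 had a probe and only Pclo passed the filter. Pclo, a presynaptic scaffold gene (ILMN_2665805), read 98.4 and 114.3 with FLT3-ITD and 131.9 and 111.1 with pMIG, so its groups overlapped. Its log2 difference was -0.55 (SE 0.28, adjusted p = 0.407 in limma). As 1 neighbour probe was fitted, the count of 0 past the threshold says nothing particular about the neighbours.

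**Figure D5:**
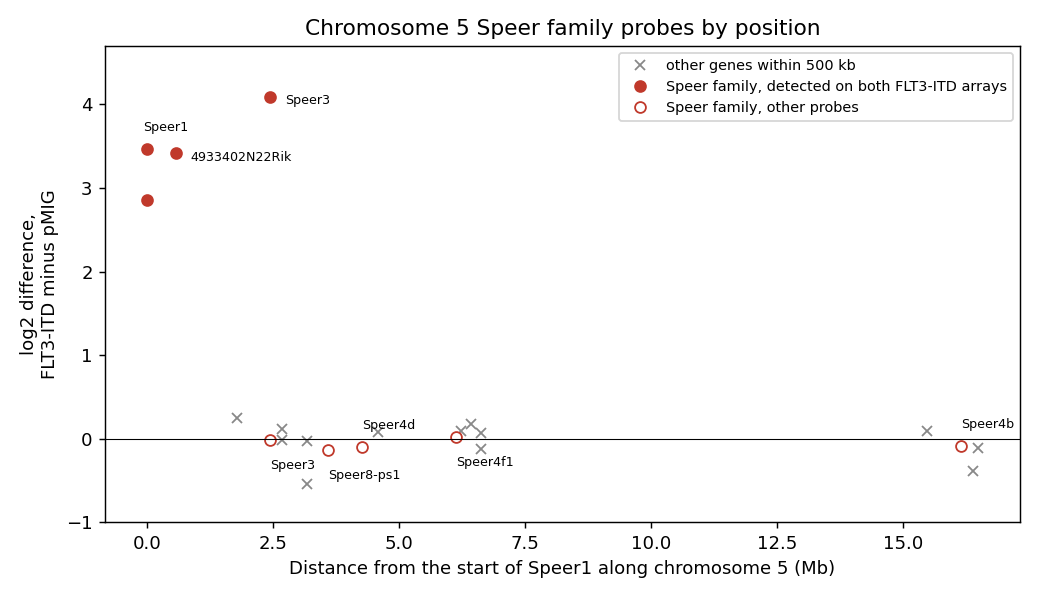
Log2 difference, FLT3-ITD minus pMIG (vertical), by distance in Mb from the start of Speer1 along chromosome 5 (horizontal), for family probes (red) and other genes within 500000 bases of a member (grey crosses). The filled points of Speer1, 4933402N22Rik and Speer3 lie at 2.85 to 4.09, set against pMIG signals at or near background, and the dim probes and neighbours lie around 0.

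Of the family's relatives few could be measured. Dlg5 had no probe listed under its name. Dlg3, a paralogue that organises synapses, was detected on all 4 arrays at 177.6 and 178.8 with FLT3-ITD and 189.1 and 158.5 with pMIG (log2 difference 0.15, SE 0.13, adjusted p = 0.613 in limma). The takusan gene 2610042L04Rik, from another rodent family related to Dlg5, had 4 probes, of which 1 entered the fit with a difference of -0.35 (SE 0.20, adjusted p = 0.447 in limma). The other 3 were detected on no array. Dlg2 and Dlg4 were each detected on 1 FLT3-ITD array (112.2 and 111.2) and on no pMIG array, and Dlg1 on none. In limma 0 of the 2 fitted probes of this group passed, and 0 had an unadjusted p under 0.05. With 0.106% of all fitted probes past the threshold, a count of 0 of 2 says nothing particular about the relatives.

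Because Speer genes are known from male germ cells, 54 other genes of that lineage were examined. Of the 44 with a probe, 13 genes entered the fit through 15 probes, and 0 of the 15 passed in limma in either direction, with 4 at an unadjusted p under 0.05. Over all fitted probes 2369 of 14178 were under 0.05 unadjusted and 0.106% passed, so 0 of 15 is near the background. Their median log2 difference was 0.01, against -0.01 for all fitted probes. Summed over the brightest probe of each gene, intensity was 4368.9 and 4354.6 with FLT3-ITD and 4482.3 and 4247.9 with pMIG. Most of these probes read near background, so such a sum could hardly show a change. Of their 66 probes 40 were detected on no array. Per array 51.5% to 53.5% of all probes were detected, and the share of all probes detected on no array was not counted. Among the genes without a detected probe were Tnp2, which encodes a spermatid transition protein, Acrv1 and Acr of the acrosome, and the meiotic genes Stra8, Dmc1 and Sycp3. Others of the list were detected on all 4 arrays, among them Prm1 (127.3 to 142), Tnp1 (106.1 to 113.1) and Piwil1 (104.3 to 123.8).

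Piwil2, which encodes a PIWI protein that binds small RNAs in germ cells, had the smallest adjusted p of that list. It read 128.1 and 143.6 with FLT3-ITD and 104.0 and 98.8 with pMIG, and was detected on both FLT3-ITD arrays and no pMIG array. On the same kind of estimated bound it was 2.60-fold higher (adjusted p = 0.0706 in limma). It passed without background correction, with an offset of 50, with median normalization and with a variance trend, each time as the single germ cell gene to do so. Crem, a cAMP-responsive transcription factor gene, differed by 0.93 on 1 probe (SE 0.19, adjusted p = 0.178) and by 0.08 on another. Tssk6, a testis-specific kinase gene, differed by 0.46 (SE 0.11, adjusted p = 0.208). Ldhc, the testis lactate dehydrogenase gene, differed by -0.62 (SE 0.19, adjusted p = 0.234) and by 0.12 on its second fitted probe.

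The genes outside the family whose 4 log2 values, centred on their own mean, lay nearest to those of Speer3 were Timp1, Csta3, Stfa2, Serpinb2 and Stfa1. All 5 encode protease inhibitors. Their distances (Euclidean, over 4 arrays) were 0.35, 0.38, 0.51, 1.48 and 1.72. The family's own 4933402N22Rik and Speer1 (ILMN_3143494) lay at 0.72 and 0.74 and Speer1 (ILMN_3065555) at 1.29. With 4 arrays in 2 groups such nearness is set largely by the size of the group difference. Genes picked for nearness therefore differ between the groups by their choice, and no test of that difference is given. All 5 were detected on both pMIG arrays. Timp1, for example, read 162.2 and 151.8 with pMIG, and its log2 difference was 3.94.

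Lineage markers were read beside these genes, none of them past the threshold, and their part in the Speer signal was not tested. All 9 stem and progenitor markers, among them Cd34, Myb and Mpo, were detected, with a median log2 difference of -0.33. The 4 dendritic and MHC class II markers had a median of 1.29 and a summed intensity of 11448.3 and 12545.4 with FLT3-ITD against 5572 and 4930.2 with pMIG. Among them H2-Ab1, H2-Eb1 and Cd74 differed by 1.27, 1.33 and 1.32, whereas Itgax read near background and differed by -0.08. The stem and progenitor markers summed to 42781.4 and 45635 with FLT3-ITD and 64871.7 and 52330.1 with pMIG. Of 8 B lymphoid markers 5 had a probe, with a median of 1.03 and sums of 1873.5 and 2111.9 against 1325.7 and 1177.3. The 5 mast cell and basophil markers had a median of -0.83 and sums of 4916.9 and 5461.6 against 9581.2 and 7884.6. The 6 megakaryocyte markers had a median of -0.95 and sums of 1973.4 and 2374.1 against 3165.4 and 2605.7, with Itga2b the other way at 0.34. Of 5 T and NK markers 2 were detected on at least 2 arrays and Cd8a on none. The 2 went opposite ways, Klrd1 at 1.89 and Nkg7 at -0.47 (median 0.71). The T and NK sums were lower with FLT3-ITD, at 3353 and 3664.5 against 4692.2 and 4558.5. The 5 neutrophil markers had a median of 0.07, with S100a8 at 0.28 and Camp at -0.28. The 2 measured erythroid markers had a median of 0.46, with Hba-a1 at 1.29 and Klf1 at -0.36. A list's median is thus not a shift shared by all its members. In limma 0 of these markers passed, each read by its brightest probe. In bulk RNA a change in the share of a cell type and a change in RNA per cell cannot be told apart.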

How the data were processed

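The authors deposited non-normalized intensity values for 26512 probes on 4 Illumina arrays, each with a detection p-value, per the file headers. How the p-value was computed is not given in the sources used here, and scanner software is not given either. Per the labels' protocols, total RNA was converted to biotinylated cRNA. A second deposited table holds log2 values whose making is not stated. They ranked probes as the intensities did (rank correlation 1), lay within 0.232 of the log2 values made here, and had array medians of 4.79, 4.79, 4.80 and 4.79.

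Intensities were corrected with limma 3.58.1 (R 4.3.3, statmod 1.5.0) by the normexp model from detection p-values, with an offset of 16, then log2-transformed and quantile-normalized. Median intensities were 103.1 to 107.9, and 51.5% to 53.5% of probes were detected. Replicates correlated across probes at 0.991 and 0.990 and pairs across groups at 0.983 to 0.985. Probes with detection p under 0.05 on at least 2 of 4 arrays (14178) were fitted with lmFit and eBayes, with two-sided p-values adjusted by Benjamini-Hochberg across the 14178. The number of arrays limits the precision, and the steps were tested on simulated data.

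Probe names came from the platform annotation (24279 probes with 1 symbol, 2233 not listed with a gene). The relatives were found by symbol and synonym in the reference gene table, which carries no gene descriptions. The background model takes detection p to fall with intensity, which was not so for every probe. The members and lists were chosen with earlier results of these data known. Named genes were every member, the 5 nearest genes, all relatives, and the 4 germ cell genes and neighbours of smallest adjusted p. Promoter windows were aligned globally with free end gaps (match 2, mismatch -1, gap opening -5, extension -1).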

Additional observations from a re-analysis of the deposited data

How the results depend on the processing

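Of 15 probes past the threshold as reported, all 15 also passed, among larger sets, without background correction (963), with an offset of 50 (408), median normalization (97), a detection p under 0.01 (43), a variance trend and robust fit (1183), a variance trend alone (1123) and the deposited log2 table (45). A robust fit alone and no filter on dim probes each gave 15. With 1 probe per gene 20 passed (18 higher, 2 lower), 11 of them among the 15, and 3 were family probes. With 1 array left out the count was 0 to 0, the lone array being assumed to vary like the other group. The replicate number as a block gave 7, all among the 15, and kept 3 of the 4 family calls (Speer3, 4933402N22Rik and Speer1 by ILMN_3143494). Deviations of same-numbered arrays correlated at -0.01, so no shared shift was seen between them. With 2 arrays per group this cannot tell whether the samples were paired, and the labels do not say. Of germ cell probes, 1 passed without background correction, with an offset of 50, median normalization, a variance trend and robust fit, and a variance trend alone, and it was Piwil2 each time. Median normalization also split the calls into 83 higher and 14 lower, no background correction into 527 and 436, an offset of 50 into 276 and 132, and the variance trend into 582 and 541. The cause of these changes was not tested. Speer6-ps1 passed in the settings with no background correction, an offset of 50, median normalization and either variance trend. For 4933402N22Rik and Speer1 the pMIG signal was not detected, so fold changes are estimated bounds that depend on the offset. They are not lower limits.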
